A study of Mus musculus with 2 samples.

Results

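A set of 6 genes that regulate muscle transcription or splicing, Tcf12, Mef2a, Eya1, Mbnl1, Celf1 and Celf2, was examined in a map of YTHDF2-bound RNA in mouse myotubes. The genes were picked by name from those with YTHDF2 peaks, so the presence and strength of their peaks chose them and are given as a description, with no test. Their bodies overlapped 103 of the 9271 peaks in the list, and 4 of the 1541 peaks that the authors paired with a gene belonged to them (2 to Mbnl1, 1 to Mef2a, 1 to Eya1). The study set 1 RNA immunoprecipitation (RIP) library made with an anti-YTHDF2 antibody against 1 input library of unselected RNA. Both came from wild-type myotubes of C2C12, a line of mouse myoblasts whose cells fuse and differentiate when serum is lowered. The cells were kept in 2% horse serum for 4 to 5 days with no other treatment, and both libraries carry batch label 1. There was no replicate of either library, so no difference below was tested, and an IgG control that the design text names was not analysed here. The depth of the libraries is unknown.

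YTHDF2 is a cytoplasmic reader protein that binds RNA carrying N6-methyladenosine (m6A) and recruits the machinery that removes poly(A) tails, which shortens the life of its targets. The methyl group is placed on adenosine within a short consensus whose common core is GGAC followed by A, C or U. In skeletal muscle, the E protein TCF12 pairs with MyoD-family factors on DNA, MEF2 factors act with them on muscle promoters, and EYA1 is a phosphatase that also serves as a transcriptional coactivator. MBNL1 and the CELF proteins bind RNA and steer alternative splicing, often with opposite effects on the same exon, and the balance between them shifts as muscle matures.

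The peaks that the results turn on are printed below from the GRCm38 (mm10) genome, 5′ to 3′ on the strand of the gene. They were picked to show the range of sequence found under peaks: a repeated GU-rich element and a GGACT core in Tcf12, a long run of C and T under the strongest peak in Celf2, the first Mbnl1 peak, and 30-base stretches of the Mef2a stop codon and of the Mbnl1 3′ UTR. Capitals mark the m6A core (GGACA in some peaks, GGACT in others) and the element TGTTTGTTTGT, except in the Celf2 peak, where they mark the C and T run, and in Mef2a, where they mark the stop codon.
Tcf12 intron peak, minus strand, chr9:71960890-71961140: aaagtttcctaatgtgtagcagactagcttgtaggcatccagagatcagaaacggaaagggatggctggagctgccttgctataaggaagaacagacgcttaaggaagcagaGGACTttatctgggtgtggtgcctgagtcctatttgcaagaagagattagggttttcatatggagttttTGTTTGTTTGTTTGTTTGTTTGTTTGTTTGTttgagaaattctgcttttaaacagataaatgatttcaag
Celf2 strongest intron peak, minus strand, chr2:6951949-6952197: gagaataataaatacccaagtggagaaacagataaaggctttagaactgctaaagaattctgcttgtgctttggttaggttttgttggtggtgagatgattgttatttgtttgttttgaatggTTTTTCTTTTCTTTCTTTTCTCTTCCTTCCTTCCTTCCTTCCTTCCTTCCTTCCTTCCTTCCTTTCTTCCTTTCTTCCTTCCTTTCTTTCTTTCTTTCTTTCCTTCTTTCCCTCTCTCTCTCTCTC
Mbnl1 first peak, plus strand, chr3:60501430-60501647: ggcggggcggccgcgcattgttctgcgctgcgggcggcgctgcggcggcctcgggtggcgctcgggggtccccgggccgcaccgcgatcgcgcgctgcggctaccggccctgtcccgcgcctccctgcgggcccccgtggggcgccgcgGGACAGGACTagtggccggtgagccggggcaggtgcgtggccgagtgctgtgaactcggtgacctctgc
Mef2a stop codon, minus strand, chr7:67293696-67293725: tggaaattgagggttcttcgcacaaccTAA
Mbnl1 3′ UTR, plus strand, chr3:60628956-60628985: tttgctttttgtGGACAgcttgtagtttgc

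Over the 6 genes together, 103 peaks amounted to 5.86 per 100 kb of gene body. Every peak carried scores from the authors' peak caller, which give the RIP signal at the summit and its fold enrichment over the local input background. Here each fold is given with the number of RIP fragments at the summit and the input background in units of the caller's signal, in which 1 fragment counts 0.9. An exact 95% Poisson interval of the RIP fragments is also given, which covers counting error only. The median peak of the 6 genes had 35 RIP fragments over an input background of 7 and a fold enrichment of 3.86, against 29 fragments over 5 and 4.40 in the whole list. A fold of 4 or more was reached by 46 of the 103 peaks (44.7%), against 59.6% of all 9271. All 6 genes had a peak, as their choice required, against 15.0% of 21924 protein-coding genes, and 3 of the 6 stood in the authors' gene table, against 5.76%. The map of peaks along the 6 genes shows where they lay.

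**Figure D1:**
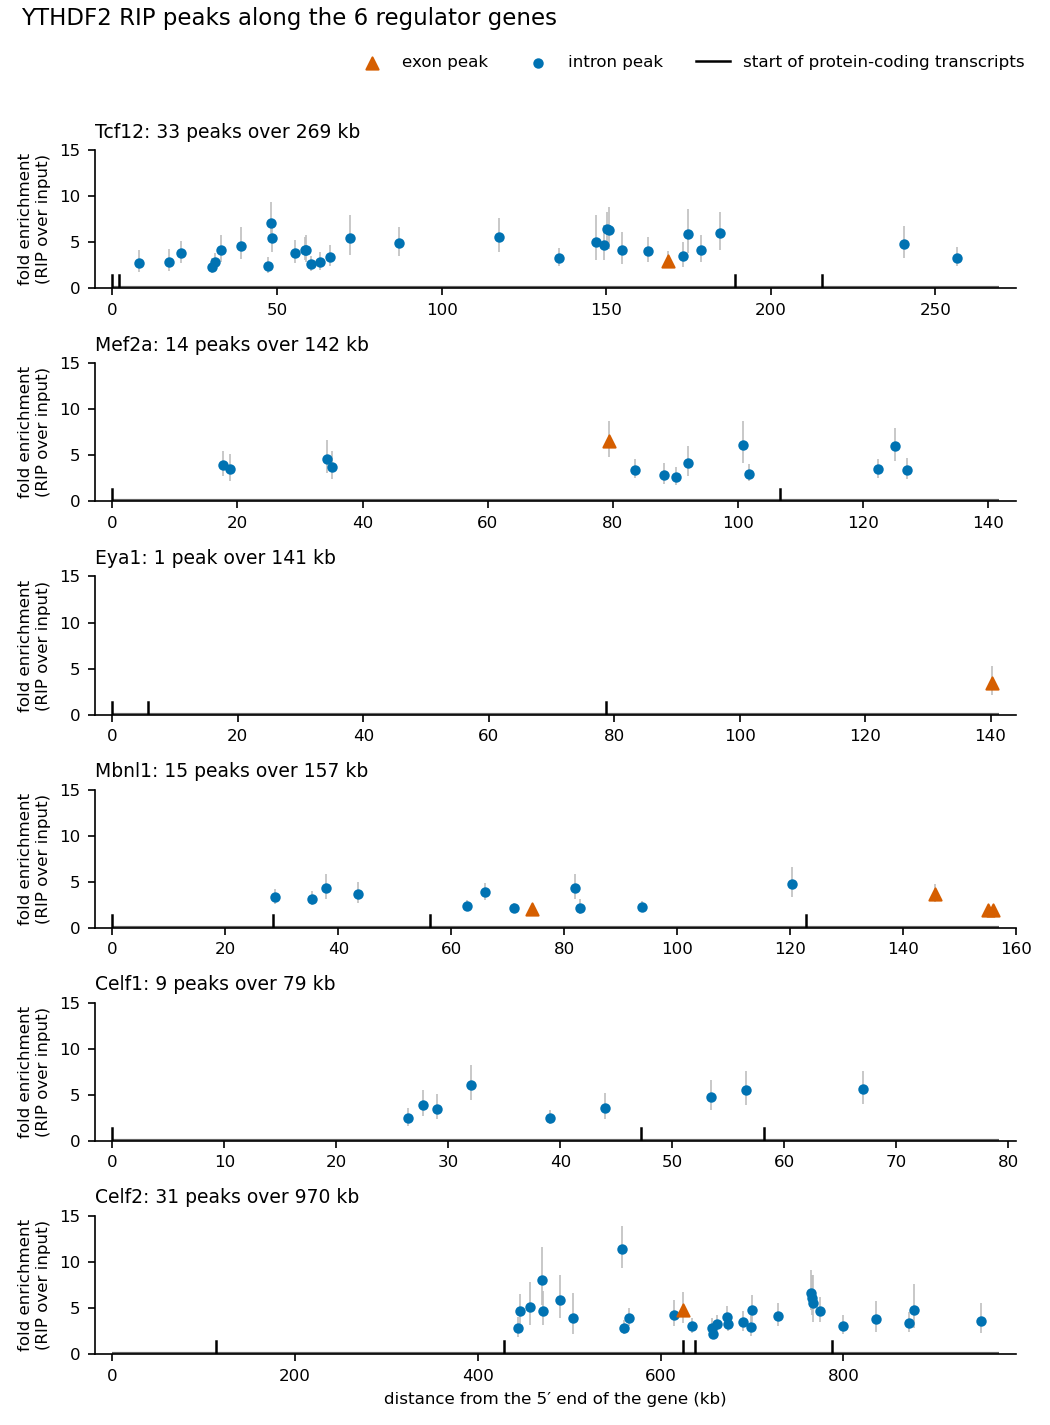
YTHDF2 RIP peaks along the 6 genes, with the distance from the 5′ end of the gene in kb on the horizontal axis and the fold enrichment of RIP over input on the vertical axis. Triangles are exon peaks, circles intron peaks, grey bars exact 95% Poisson intervals of the RIP fragments, and black ticks starts of protein-coding transcripts; Tcf12 held 33 peaks, Celf2 31, Mbnl1 15, Mef2a 14, Celf1 9 and Eya1 1.

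Tcf12, on the minus strand of chromosome 9 from 71842688 to 72111871, held 33 peaks, 1 in an exon and 32 in introns. Only 3 of the 21924 protein-coding genes held more, which places it at rank 4. The gene spans 269 kb and so held 12.3 peaks per 100 kb. Of 515 protein-coding genes whose length lay within 25% of it, 1 held as many peaks (Angpt1, with 37), and 38.3% held any. The peaks of Tcf12 were crowded into its 5′ portion: 31 lay in the 187 kb between the transcript starts at 72109724 and 71922710, which is 16.6 per 100 kb. None lay in the next 26.3 kb, and 2 lay in the last 53.7 kb, which follow the start at 71896396. By the introns of transcript Tcf12-202, 18 peaks lay in intron 3 (94.0 kb), 8 in intron 5 (56.4 kb) and 5 in intron 6 (21.2 kb), while intron 8 (31.7 kb) held none.

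The strongest Tcf12 peak, in intron 3 at chr9:72063691-72063918, had 46 RIP fragments over an input background of 5.02, a fold of 7.04 (5.20 to 9.34). Next came a peak in intron 5 at chr9:71961330-71961654, with 56 fragments over 7 and a fold of 6.43 (4.88 to 8.31). It lay just beside the printed peak with both motifs, at chr9:71960890-71961140, which had 30 fragments over 3.46 and a fold of 6.28 (4.31 to 8.87). The intervals of these 3 peaks overlapped. Over all 33 peaks the fold ran from 2.33 to 7.04 with a median of 4.12, and 19 of them (57.6%) reached 4. The single exon peak of Tcf12, at chr9:71942785-71943116, lay wholly within a retained-intron transcript and in no exon of a protein-coding transcript. It had 42 fragments over 12, a fold of 2.98 (2.17 to 4.01), which is below the gene's median.

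Mef2a encodes a MADS-box factor that binds A/T-rich sites in muscle genes. It lies on the minus strand of chromosome 7 from 67231163 to 67372858 and held 14 peaks over 142 kb, 1 in an exon and 13 in introns, or 9.88 per 100 kb. Of 1139 genes of like length, 10 held as many. The exon peak was the strongest of the gene and the only one that the authors paired with it. At chr7:67293335-67293835, it had 47 RIP fragments over an input background of 5.58, a fold of 6.58 (4.88 to 8.70). The other 13 peaks ran from 2.62 to 6.13 in fold, and the highest of them, at chr7:67271864-67272113, had 28 fragments over 3.27 (4.15 to 8.76).

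The authors marked the Mef2a exon peak as touching the stop codon, the coding sequence and the 3′ UTR. In GENCODE M21 the exon under it, from 67293594 to 67293740, is 147 bases long and belongs to Mef2a-202, a transcript classed as subject to nonsense-mediated decay, the pathway that destroys mRNAs with an early stop. Of its bases 42 are coding, and the stop codon at 67293696 to 67293698, printed above in capitals, is followed by untranslated sequence within the same exon. The peak also overlapped a retained-intron transcript, and no exon of a protein-coding transcript. By transcript Mef2a-203, whose intron 4 (27.2 kb) surrounds it, 7 of the 14 peaks lay in that intron, 3 in intron 8, and 2 each in introns 1 and 2. A gene on the opposite strand, Lysmd4, has a transcript that spans 10 of the 14 peaks. The strand of the reads is not known here, so RNA of these genes cannot be told apart at those peaks.

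Eya1 lies on the minus strand of chromosome 1 from 14168954 to 14310235. It held 1 peak over 141 kb, at chr1:14169897-14170098, within the 3′ UTR of its last exon in 3 protein-coding transcripts. This peak had 18 RIP fragments over an input background of 4, a fold of 3.44 (2.12 to 5.32). Of 1144 genes of like length, 35.8% held at least 1 peak. Eya1 was thus the only one of the 6 genes without an intron peak, although its introns include 5 of more than 17 kb.

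Mbnl1 lies on the plus strand of chromosome 3 from 60472830 to 60629750 and held 15 peaks over 157 kb, 4 in exons and 11 in introns, or 9.56 per 100 kb. Of 977 genes of like length, 7 held as many. Its peaks stood on the highest input of the 6 genes, with a median background of 17.5, and the lowest median fold among the 5 genes with several peaks, 3.16. The highest Mbnl1 fold was 4.76 (3.34 to 6.59), with 34 fragments over 5.64, in the intron peak at chr3:60593066-60593303. Both peaks that the authors paired with Mbnl1 lay in the 3′ UTR of several of its coding transcripts. The one at chr3:60628748-60628989 had 200 RIP fragments, the most of all 103 peaks, over an input background of 93, a fold of 1.93 (1.67 to 2.21). The one at chr3:60627778-60627978 had 169 fragments over 79, a fold of 1.91 (1.64 to 2.22). These were the lowest folds of the 103 peaks, on the highest counts in both libraries.

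The other exon peaks of Mbnl1 lay in non-coding transcripts. At chr3:60547088-60547359, a peak of 108 fragments over 47, with a fold of 2.05 (1.68 to 2.47), overlapped an exon of the processed transcripts Mbnl1-204 and Mbnl1-217. At chr3:60618367-60618556, a peak of 56 fragments over 13, with a fold of 3.67 (2.79 to 4.75), lay in the retained-intron transcript Mbnl1-205. No peak lay in the first 28.3 kb of the gene, upstream of the transcript start at 60501179, and all 15 lay in the 129 kb after it. This is the last start of protein-coding transcripts before the first peak, so where the peaks lay set this split. The first peak, printed above, began 251 bases after that start and 7 bases from the nearest exon. It had 68 fragments over 17.5, a fold of 3.37 (2.63 to 4.25), and at 79.4% the highest share of G and C of the 103 peaks. It was 1 of 2 intron peaks among 95 that lay within 100 bases of an exon.

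Celf1 lies on the plus strand of chromosome 2 from 90940382 to 91019497 and held 9 peaks over 79.1 kb, all in introns, or 11.4 per 100 kb. Of 1757 genes of like length, 37 held as many. By transcript Celf1-201, 6 lay in intron 1 (47.0 kb), 2 in intron 2 and 1 in intron 9. The strongest, at chr2:90972237-90972463, had 41 RIP fragments over an input background of 5.23, a fold of 6.09 (4.41 to 8.20). It was followed by peaks at chr2:91007145-91007486, with 41 fragments over 5.77 and a fold of 5.60, and at chr2:90996834-90997124, with 37 over 5.21 and a fold of 5.53. The intervals of these 3 overlapped, and the remaining 6 ran from 2.44 to 4.77. Repeats masked in the genome made up at least 50% of 8 of the 9 Celf1 peaks, against 35 of the 103 peaks over all 6 genes and none of the 15 in Mbnl1. With peaks left out where protein-coding genes of both strands overlap, 34.4% of the peaks of the 6 genes reached this. Among other peaks in gene bodies it was 35.2%, and among other intron peaks 41.4%.

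Celf2, the longest of the 6 genes, lies on the minus strand of chromosome 2 from 6539694 to 7509563 and held 31 peaks over 969.9 kb, 1 in an exon and 30 in introns. That is 3.20 per 100 kb, less than in each of the other 4 genes with several peaks. None of 86 genes of like length held as many, and the nearest was Adgrl3, with 21. None of the peaks lay in the 428 kb upstream of the transcript start at 7081302, and all 31 lay in the 542 kb downstream of it. This is the last start of protein-coding transcripts before the first peak, so where the peaks lay set this split. The peak nearest to that start, at chr2:7065168-7065548, did not reach it. Within that downstream portion the density was 5.60 per 100 kb up to the start at 6884996, 15.4 (2 peaks) from there to 6871972, 8.68 to 6722209 and 2.74 over the rest of the gene.

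The strongest peak of all 103 lay in a Celf2 intron at chr2:6951949-6952197. It had 99 RIP fragments over an input background of 6.88, a fold of 11.4 (9.31 to 13.9), and its interval lay above the fold of each other peak of the 6 genes. As printed above, 126 of its 249 bases formed a single run of C and T. The next highest, at chr2:7039197-7039382, had 26 fragments over 2.05, a fold of 8.01 (5.35 to 11.6). Its interval overlapped that of the strongest Celf2 peak, and also those of the strongest Tcf12 and Celf1 peaks. The single exon peak of Celf2, at chr2:6884496-6884691, had 31 fragments over 5, a fold of 4.82 (3.33 to 6.77). It lay in a processed transcript, which codes for no protein, and also overlapped Gm13389, an antisense gene, from which it cannot be told apart.

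Most peaks of the 6 genes lay in introns. Of the 103 peaks, 8 touched an exon (7.77%, Wilson interval 3.99% to 14.6%), against 22.6% of the 8778 peaks in protein-coding gene bodies. Exons make up 5.18% of the bases of the 6 gene bodies, which is a share of bases and not of peaks. The comparison with all gene bodies was matched for neither gene length nor exon content. Restricting exons to protein-coding transcripts left 3 exon peaks (2.91%), both 3′ UTR peaks of Mbnl1 and that of Eya1. The 95 intron peaks lay a median of 11198 bases from the nearest exon, and 4 of them lay within 1 kb of one. These genes were picked with their peaks known, so the low exon share describes them and is not a test.

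The median fold was 3.21 for the 8 exon peaks and 3.93 for the 95 intron peaks, on an input background of 12.5 for exon and 7 for intron peaks. RIP fragments had a median of 51.5 in exon and 34 in intron peaks. Between backgrounds of 4 and 8, exon peaks had a median fold of 4.82 (n = 3) and intron peaks 4.63 (n = 44), so the lower median of exon peaks was not present there. Those exon peaks were in Mef2a (6.58), Celf2 (4.82) and Eya1 (3.44). The Mef2a and Celf2 peaks overlap genes on the opposite strand, and the Eya1 peak lay below the intron median. At backgrounds of 8 or more, the medians were 2.05 for exon peaks (n = 5) and 3.21 for intron peaks (n = 40), with 3 of the 5 exon peaks in Mbnl1 at 47 or higher. No intron peak of the 6 genes had a background above 29. Without Mbnl1 the difference of medians, exon minus intron, was 0.16, against -0.72 with it. The exon peaks left then include those of Mef2a and Celf2 that overlap genes on the opposite strand. Over all peaks in protein-coding gene bodies, the medians were 3.43 for exon and 4.63 for intron peaks, and between backgrounds of 4 and 8 they were 4.50 for exon and 4.34 for intron peaks. At backgrounds of 8 or more, they were 2.80 for exon peaks (n = 1251) and 3.27 for intron peaks (n = 1745).

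**Figure D2:**
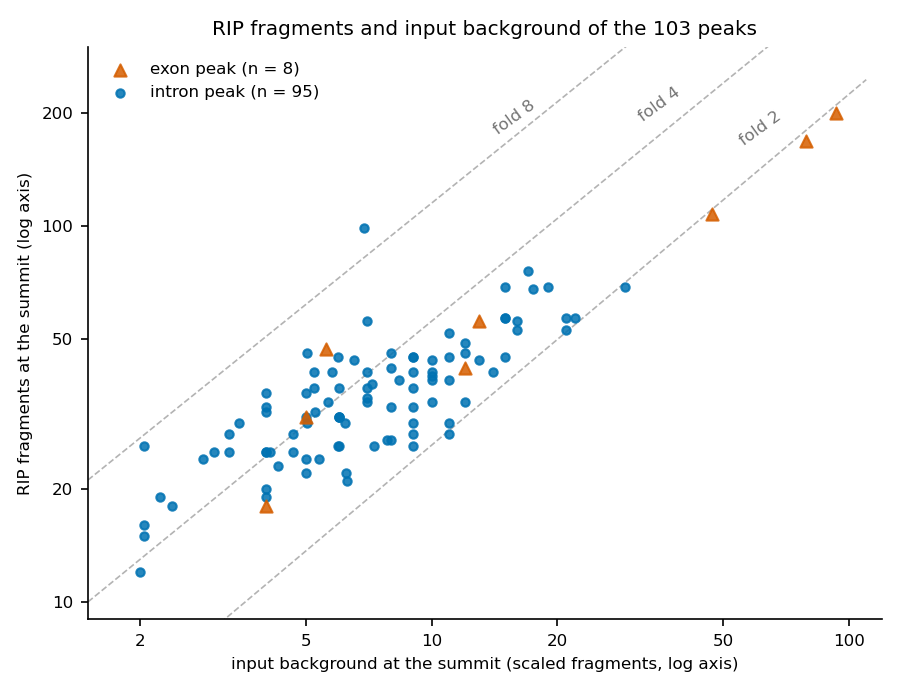
RIP fragments at the summit against input background at the summit, on log axes, for the 8 exon peaks (triangles) and 95 intron peaks (circles) of the 6 genes. The background, labelled scaled fragments on its axis, is in units of the caller's signal, in which 1 fragment counts 0.9. Dashed lines mark equal fold enrichment; the 3 exon peaks of highest background, all in Mbnl1, lie near a fold of 2.

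**Figure D3:**
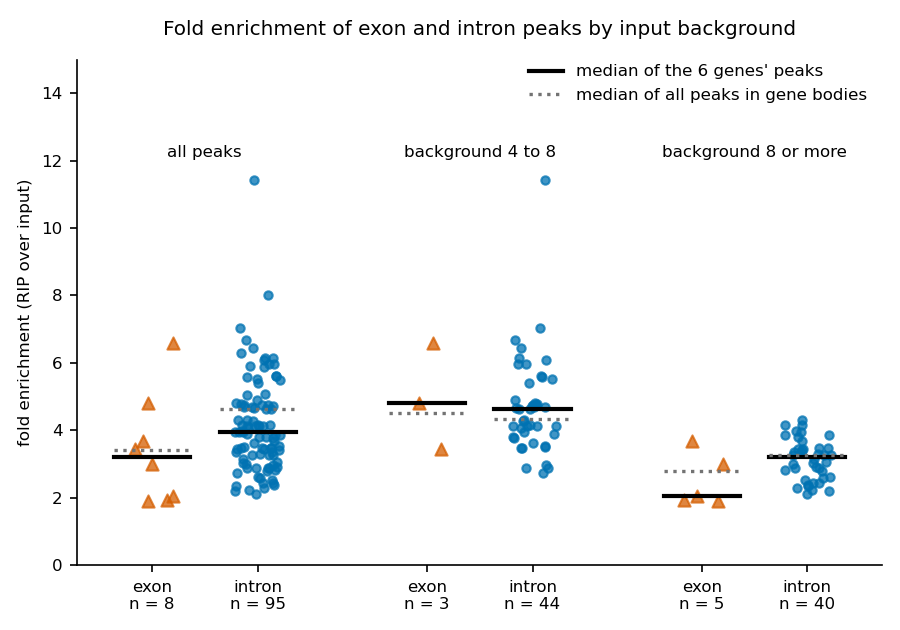
Fold enrichment of the exon peaks (triangles) and intron peaks (circles) of the 6 genes, over all peaks and within 2 ranges of input background, with horizontal scatter for visibility. Black bars are medians of the 6 genes and dotted bars medians of all peaks in protein-coding gene bodies; the exon median is lower over all peaks (3.21 against 3.93) and not between backgrounds of 4 and 8 (4.82 against 4.63).

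The count of exon peaks in Celf2 turned on the gene models. In RefSeq, predicted Celf2 transcripts begin in an exon of 24.6 kb, from 6722037 to 6746639 on chromosome 2, which GENCODE M21 does not hold. Inside it lay 4 intron peaks, with folds of 4.71 to 6.68, 19 to 46 RIP fragments and backgrounds of 2.23 to 7.998. The exon peak of Tcf12 (fold 2.98) and that of Mbnl1 at chr3:60618367-60618556 (fold 3.67) touched no RefSeq exon. With these gains and losses, 10 of the 103 peaks touched an exon of RefSeq models. The difference of medians, exon minus intron, turned to 0.91.

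The core of the m6A consensus, searched as GGACA, then as GGACC, then as GGACT, was present on the gene strand in 44 of the 103 peaks (42.7%, Wilson interval 33.6% to 52.4%). For a comparison with the list, 10 peaks where protein-coding genes of both strands overlap were left out. Of the remaining 93 peaks 42 held a core (45.2%), against 43.5% of 8526 other peaks in gene bodies. On the opposite strand the share was 48.4% in the 93 peaks, against 48.3% in the others, so the core was no more frequent on the strand of the gene than on the other. Within 201 bases centred on the summit, 38.7% of the 93 peaks and 36.7% of the others held it on the gene strand. By gene, counts over all peaks were 13 of 33 in Tcf12, 3 of 14 in Mef2a, 0 of 1 in Eya1, 8 of 15 in Mbnl1, 3 of 9 in Celf1 and 17 of 31 in Celf2.

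A second motif was searched after peaks had been seen: TGTTTGTTTGT, which is the GU-rich element that CELF1 is known to bind in human and mouse mRNAs. In all, 9 of the 103 peaks held it on the gene strand, 5 of them in Tcf12, 2 in Celf1 and 1 each in Mef2a and Celf2. Masked repeats made up at least 50% of these peaks, except the printed Tcf12 peak (21.1%) and that of Mef2a (31.0%). That share was reached by 35 of all 103 peaks. Of the 93 peaks where protein-coding genes of both strands did not overlap, 8 held the element (8.60%), against 3.42% of the 8526 others. On the opposite strand none of the 93 did, which allows a share of up to 3.23%, against 0.446% of the others. The printed Tcf12 peak held 6 overlapping copies in 1 run.

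Across whole gene bodies, overlapping copies included, Tcf12 had 41 copies on its own strand and 1 on the opposite strand, and Celf1 had 21 and 1. Celf2 had 66 and 32, Mbnl1 8 and 7, Mef2a 3 and 3, and Eya1 3 and 4. Of the 142 copies on the gene strands, 24 (16.9%) lay under peaks, which cover 1.53% of the bases. Most of these 24 were in Tcf12, with 17 of its 41 copies under peaks. The counts were 3 of 21 in Celf1, 3 of 66 in Celf2, 1 of 3 in Mef2a, 0 of 8 in Mbnl1 and 0 of 3 in Eya1. The copies come in runs within few peaks, so they are not independent of each other, and a match to these letters does not show binding by any protein. Runs of at least 40 C or T were found in 1 of the 93 peaks, the strongest Celf2 peak, against 3.28% of the others.

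Among related regulators, the number of peaks varied widely. Over all protein-coding genes, 15.0% held a peak over the body, and each list below includes at least 1 gene chosen for its peaks. Without that gene, 1 of 14 genes of the first list below and 4 of 14 of the second had a peak. Of 15 genes of the bHLH and E protein list, 2 had a peak over the body, Tcf12 and Tcf4, the gene of another E protein. Tcf4 held 6 intron peaks over 346 kb, with a highest fold of 5.43 (23 fragments over 3). The MyoD-family genes Myod1, Myf5, Myog and Myf6 had none. Of the 15 genes of MEF2 factors and partners, 5 had a peak: Mef2a with 14, the acetyltransferase genes Crebbp with 5 and Ep300 with 4, and the deacetylase gene Hdac4 and the SRF coactivator gene Mrtfb with 1 each. Mef2c and Mef2d had none. No gene of the first list and 1 of the second, Mef2a, stood in the authors' gene table, against 5.76% of all protein-coding genes.

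Of 18 genes in a list of developmental regulators that includes the EYA, PAX and DACH families, 3 had a peak, all of the EYA family. Without Eya1, which was chosen for its peak, that was 2 of 17, against 15.0% of all protein-coding genes. Eya4 held 17 peaks, 2 in exons and 15 in introns, and its strongest, an exon peak of 24 fragments over 1.51, had a fold of 9.02 (5.92 to 13.2). Eya3 held 2, the higher at 8.06 (5.09 to 12.2) with 20 fragments over 1.36. Eya1 had the fewest peaks of these 3 genes, and its single fold of 3.44 was below the highest of each of the others.

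The splicing regulators were the list with the most genes under peaks, 14 of 24 over the body (58.3%) and 9 in the authors' gene table (37.5%), against 15.0% and 5.76% of all protein-coding genes. These counts include Celf1, Celf2 and Mbnl1, which were chosen for their peaks. Of the other 21 genes, 11 had a peak over the body and 8 stood in the gene table. Beside Celf2, Mbnl1 and Celf1, the genes with a peak included Qk with 14 peaks, Ptbp2 with 13, Tra2a with 9, Ptbp3 with 7, Rbfox2 with 6 and Mbnl2 with 4. Celf4, Mbnl3, Srsf1, Tra2b and Hnrnpa1 had 1 each, in an exon. Tra2a, which encodes a splicing activator, had the highest fold of this list after Celf2, 9.81 (7.98 to 11.9) in an exon peak of 97 fragments over 8. Ptbp2, which encodes a polypyrimidine tract protein, held 19.8 peaks per 100 kb, more than each of the 6 genes. The lists were drawn up with earlier results of these data known, and gene length was not matched.

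**Figure D4:**
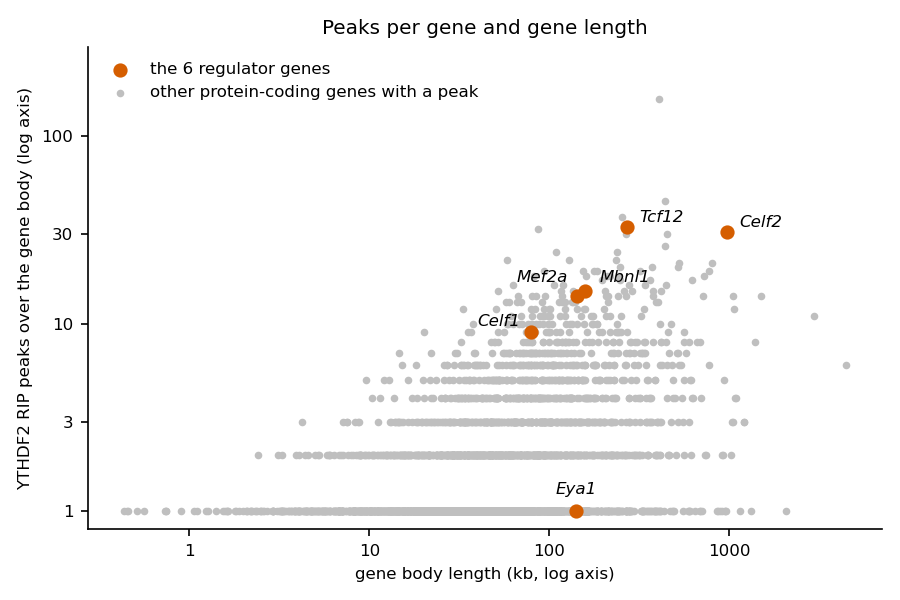
Number of YTHDF2 RIP peaks over the gene body against gene body length in kb, both on log axes, for the 6 genes (orange) and the other protein-coding genes with at least 1 peak (grey). Tcf12 (33 peaks) and Celf2 (31) lie near the upper edge for their lengths, and Eya1 (1) at the lowest value.

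Genes most like a member were taken as those closest in exon peaks, intron peaks and length, by Euclidean distance on a log2 scale (1 added to each number of peaks). Ghr was closest to Tcf12, at a distance of 0.139, with 1 exon and 29 intron peaks over 266 kb. Ctnna1 was closest to Mef2a, at 0.116, with 1 exon and 14 intron peaks over 136 kb. Ankrd17 was closest to Mbnl1, at 0.314, with 4 exon and 9 intron peaks over 139 kb. Npepps lay at 0.0810 from Celf1, with 0 exon and 9 intron peaks over 74.8 kb, and Adgrl3 at 0.623 from Celf2, with 1 exon and 20 intron peaks over 805 kb. The second closest were Gulp1, Ppp1r12a, Mnat1, Fbxo11 and Exoc4, in the same order.

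The authors' deposited table of Gene Ontology terms named Mbnl1 in 98 of 7030 terms, 70 of them with an FDR under 0.05, and Eya1 in 319, 131 of them with such an FDR. Mef2a was named in no term of the authors' deposited table, although it stood in their gene table, and Tcf12, Celf1 and Celf2, which were not in the gene table, were likewise absent. RNA splicing, the term of lowest FDR among the splicing terms with Mbnl1, held 32 genes of 180 where 11.1 were expected (FDR 3.89e-06 in the authors' deposited table, which names Fisher's test). Muscle tissue development, which named Mbnl1 and Eya1, held 39 of 352 where 21.6 were expected (FDR 0.00716, same test and authors' deposited table). For myoblast differentiation, with 7 of 50 genes, the authors' deposited table gave an FDR of 0.240.

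Peaks over input give no expression level, so the identity of the cells could not be checked by level. Of 12 myotube marker genes, Ttn alone held peaks (3), and of 6 genes of myoblasts and reserve cells none did. Of 7 genes of other cell types, Syn1, a neuronal gene, held 1. Over all protein-coding genes, 15.0% held a peak over the body, so these small counts do not speak to the identity of the cells.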

How the data were processed

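The authors used Bowtie to place reads on mm10 and MACS to call peaks of RIP over input, per the series' design text. The submitters' processing notes also name DiffBind, deepTools, HOMER, Picard, Trim Galore and FastQC, without versions. After the pulldown the protocol in the labels speaks of DNA. The authors deposited 1 peak list, which gives, per the file headers, a fold enrichment (ratio over local input), the signal (pileup) at each summit, and −log10 of p-value and q-value. They also deposited a gene table, whose rule for pairing peaks with genes is not stated, and tables of GO terms and KEGG pathways with gene counts, a p-value and its FDR.

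Each step of 0.9 in the pileup was taken as 1 RIP fragment, since every value was a multiple of it (tolerance 1e-06). Input background was computed from pileup and fold, with 1 added to both. Intervals are exact 95% Poisson intervals of RIP fragments with the background held fixed. They cover counting error only, and PCR copies are not independent molecules. Peaks were placed by an overlap of at least 1 bp with GENCODE M21 gene bodies and exons of any transcript of the gene (Python 3.11.15, pandas 2.3.3, pysam 0.24.0, SciPy 1.17.1). Sequence came from the RefSeq FASTA of GRCm38, the same build. Overlaps and intervals were tested on simulated data.

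The 6 genes and the gene lists were chosen with earlier results of these data known. Named were the 6 genes, every list gene with a peak in the authors' gene table, up to 6 more per list with a peak over the body by number of peaks, and the 2 genes closest to each member of 5 or more peaks. Angpt1, the gene of like length with most peaks, and genes named for having no peak were chosen after their values were seen. The Celf2 and Mbnl1 transcript starts that divide those genes were set by where the peaks lay. Alternatives were fold and q-value thresholds, the definition of an exon, ranges of background, motif windows and leaving out a gene. Duplicate and subset tables were not used.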

Additional observations from a re-analysis of the deposited data

How the results depend on the processing

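Peaks over the 6 bodies numbered 46 at a fold enrichment of 4 or more, against 103, and their density was 2.62 against 5.86 per 100 kb. Exon peaks, 8 in the report, numbered 3 with protein-coding transcripts only and 2 at a fold of 4 or more. The median fold of exon minus intron peaks, -0.72 in the report, was -0.36 without Tcf12, -0.47 by summit in an exon, -1.31 with q-values up to 1e-05, -1.16 at backgrounds of 8 or more and -1.98 with exons of protein-coding transcripts. It turned positive between backgrounds of 4 and 8 (0.19), with RefSeq exons (0.91) and without Mbnl1 (0.16). Each of these values includes the exon peaks of Mef2a and Celf2 that overlap genes on the opposite strand. No exon peak had a background under 4, so no value exists there. The m6A core was in 25.2% of peaks as GGACT alone, against 42.7%. List genes with a peak, the 6 chosen genes included, numbered 24 of 72, and 12 in the authors' gene table only. Protein-coding exons for the median, RefSeq exons, the value without Mbnl1 and both list alternatives were chosen after seeing the data. Filters on fold or q-value remove peaks by construction, and for the other changes the cause was not tested. No paired analysis was possible because there was 1 library of each kind and 1 peak list. With no replicate, the spread between cultures is unknown, and folds at low background rest on as few as 12 fragments.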
